A study of Mus musculus with 6 samples.

Results

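The alpha-2,3-sialyltransferases are the 6 enzymes encoded by St3gal1 to St3gal6, and their genes were taken by symbol from the deposited expression tables, which hold 24346 gene symbols each. All 6 symbols were present, and all 6 passed the filter on low values (their mean over all libraries had to reach 0.5 FPKM; FPKM is fragments per kilobase of transcript, scaled to the mapped fragments of the library). RNA was taken from mouse retinas at postnatal day 12. Control mice (3 libraries) carried Panky+/-, Panky-like+/- and Nrl-/-, and triple-deficient mice (3 libraries) carried Panky-/-, Panky-like-/- and Nrl-/-. By these labels all mice of both groups were Nrl-null. Nrl is the factor that sets the rod fate, and photoreceptors that develop without it are cone-like cells, not native cones. The controls were heterozygous, and no wild-type group is part of the comparison. Panky is Ankrd33, a transcriptional co-repressor of photoreceptors, and the paralog Ankrd33b was read as Panky-like, a match that the labels do not give. The design text gives 3 littermate pairs, which would make 1 mouse per library, but no sample label says which animal a library comes from. P-values therefore measure the spread between these samples.

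Sialyltransferases are Golgi enzymes that move sialic acid from its activated donor, CMP-sialic acid, onto the ends of glycans. The alpha-2,3 enzymes attach it to a terminal galactose, and members differ in the chain that carries this galactose. St3gal1 and St3gal2 act on galactose linked to N-acetylgalactosamine, as in mucin-type O-glycans and complex gangliosides. St3gal3, St3gal4 and St3gal6 act mainly on galactose linked to N-acetylglucosamine, the usual end of N-glycan antennae. St3gal5 acts on lactosylceramide and makes the first ganglioside of the pathway, from which the other gangliosides of neurons are built. The title of the series names ganglioside metabolism, and the comparisons ask which paralog dominates in the cone-like retina and whether any differs between the genotypes.

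FPKM sums ran from 385962 to 396697 per library, and depth estimated from the steps of low values ran from about 18.1 M to 27.1 M fragments. Ankrd33b fell from 33.8 ± 1.45 FPKM in controls to 1.5 ± 0.265 FPKM in triple-deficient libraries (SD, n = 3), and Ankrd33 fell from 106 ± 2.97 to 55.6 ± 4.66 FPKM (log2 changes of -3.80 and -0.93, limma adjusted p = 4.56e-07 and 0.00274). Transcripts of Nrl were detected in every library, at 44.2 ± 5.46 FPKM in the control group and 52.5 ± 1.16 FPKM in the triple-deficient group. Those groups did not overlap (log2 change 0.25, limma adjusted p = 0.861), and a value over the whole gene does not check the label, since the deleted part is not named. Over all genes, 4 of 14325 passed limma's threshold of an adjusted p below 0.05, which is 0.0279% of those tested. That count was 8 without control 3, 11 without triple-deficient 1 and 11 without triple-deficient 3, against 3 to 5 when another library was left out. The 6 cone markers, Opn1sw among them, summed to 5178 to 5320 FPKM in the control group and 4757 to 5288 FPKM in triple-deficient libraries. Rod markers were uneven: Gnat1 and Cnga1 stayed below 1 FPKM in every library, while Pde6b was at 18.5 to 23.7 FPKM and Gngt1 at 258 to 367 FPKM. Of 14 marker lists for retinal and neighbouring cells, none held a gene past the threshold. Apart from pigment epithelium markers, only Apoe, of the Mueller glia list, had an unadjusted limma p below 0.05. Its groups did not overlap, at 599 ± 30.5 FPKM in the control group and 499 ± 55.9 FPKM in the triple-deficient group. Of the 6 Mueller glia markers tested, 3 changed upward and 3 downward. The 6 pigment epithelium markers summed to 20.1 to 30.2 FPKM in the control group and 12.5 to 19.2 FPKM in triple-deficient libraries. Of the 4 tested, 3 (Ttr, Pmel and Tyrp1) had an unadjusted limma p below 0.05, beside 5.09% of all genes. Ttr was at 15.8 ± 3.26 FPKM in the control group and 8.81 ± 1.66 FPKM in the triple-deficient group. The list did not fall as a whole: Rpe65 was at 2.59 ± 0.600 and 2.32 ± 1.29 FPKM in overlapping groups. Best1 was at 0.265 and 0.253 FPKM and Lrat at 0.242 and 0.262 FPKM, both below the filter. The 5 lens markers summed to 1.01 to 6.70 FPKM in the control group and 1.07 to 1.36 FPKM in triple-deficient libraries, with Cryaa at 4.61 FPKM in control 1. Bfsp1, also of that list, was at 0.565 FPKM on average in controls and 0.770 FPKM in triple-deficient libraries, in groups that did not overlap. The part of these other tissues in the values below was not tested.

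St3gal3 and St3gal5 dominated the family. St3gal3 was at 52.9, 46.9 and 54.9 FPKM in control libraries 1, 2 and 3 and at 50.7, 50.2 and 47.8 FPKM in triple-deficient libraries 1, 2 and 3. Control 2 was the lowest of the 6 and control 3 the highest, so the triple-deficient values lay inside the range of the controls. St3gal5 was at 45.3, 43.1 and 46.9 FPKM in the control group and at 43.0, 44.0 and 44.0 FPKM in triple-deficient libraries. Its 3 triple-deficient values were close together (coefficient of variation 1.33%) and overlapped the controls (4.21%). By mean level over the 6 libraries St3gal3 ranked 1627 and St3gal5 ranked 1901 among the 14325 genes tested. Thus an enzyme of N-glycan antennae and the enzyme that opens ganglioside synthesis were the most abundant members per length of transcript.

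Coordinates are those of NCBI RefSeq for GRCm38.p6, the build that mm10 names. St3gal3 spans 203 kb of chromosome 4 (117932152 to 118134972, minus strand) and St3gal5 spans 57.0 kb of chromosome 6 (72097552 to 72154571, plus strand). RefSeq's promoter table held 5 entries for 4 members: 1 each for St3gal3, St3gal4 and St3gal5 and 2 for St3gal6. The 250 bases before the start are shown for the 2 dominant genes and for both starts of St3gal6, the member with the lowest level, because its outer start differs from the other windows in base composition. The starts are those of RefSeq's promoter table, which can lie inside the gene span given here, so the ends of the St3gal3, St3gal5 and outer St3gal6 windows and the whole inner St3gal6 window fall within their spans. Capitals mark matches on either strand to CCAAT (the CCAAT box) and GGGCGG (the GC box).
St3gal3, chr4:118134947-118135196, minus strand: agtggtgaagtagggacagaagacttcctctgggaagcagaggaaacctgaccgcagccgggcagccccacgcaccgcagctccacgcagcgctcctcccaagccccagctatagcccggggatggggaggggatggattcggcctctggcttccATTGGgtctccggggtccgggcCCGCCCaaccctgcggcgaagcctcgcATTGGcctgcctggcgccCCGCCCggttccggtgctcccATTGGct
St3gal5, chr6:72097358-72097607, plus strand: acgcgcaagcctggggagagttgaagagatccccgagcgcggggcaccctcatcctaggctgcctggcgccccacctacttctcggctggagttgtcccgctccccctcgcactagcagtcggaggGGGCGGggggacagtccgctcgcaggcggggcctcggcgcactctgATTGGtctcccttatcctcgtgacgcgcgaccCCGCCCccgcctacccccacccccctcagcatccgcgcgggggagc
St3gal6 outer start, chr16:58524254-58524503, minus strand: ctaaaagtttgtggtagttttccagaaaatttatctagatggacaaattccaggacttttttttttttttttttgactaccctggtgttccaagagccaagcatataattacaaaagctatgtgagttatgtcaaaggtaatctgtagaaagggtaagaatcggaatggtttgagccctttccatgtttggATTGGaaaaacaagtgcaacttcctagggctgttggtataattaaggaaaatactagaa
St3gal6 inner start, chr16:58523427-58523676, minus strand: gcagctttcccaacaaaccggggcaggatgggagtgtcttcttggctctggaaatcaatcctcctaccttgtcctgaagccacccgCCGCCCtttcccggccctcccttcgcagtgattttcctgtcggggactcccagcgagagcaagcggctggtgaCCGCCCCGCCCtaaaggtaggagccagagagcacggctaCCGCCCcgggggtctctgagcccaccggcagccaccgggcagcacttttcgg
The St3gal3 and St3gal5 windows held 68.4% and 71.6% G or C and 18 and 25 CpG dinucleotides, against a median of 52.4% and 6 CpG over 32851 promoter entries of the same length. St3gal3 had 3 CCAAT matches and 2 GGGCGG matches, and St3gal5 had 1 and 2. The outer start of St3gal6 had 34.8% G or C, 1 CpG, 1 CCAAT match and no GGGCGG match, while its inner start had 64.4%, 16 CpG, 4 GGGCGG matches (2 of them overlapping by a base) and no CCAAT match. The St3gal4 window, not shown, had 72.8% G or C, 25 CpG and 3 GGGCGG matches. Among all entries 33.9% held a CCAAT match and 32.7% a GGGCGG match. TAATCC, the core letters bound by the photoreceptor factor Crx, was found in 6.25% of all entries and in none of these 5 windows, and TATAAA was found in 12.4% and in none of the 5. Each table gives a single value for a gene, so which start was used is not shown.

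The next pair in level was St3gal2 and St3gal4. St3gal2, which adds the terminal sialic acid of O-glycans and of complex gangliosides, was at 11.2, 12.1 and 12.6 FPKM in the control group and at 12.4, 12.0 and 11.3 FPKM in triple-deficient libraries. The lowest and the highest of these 6 values were both controls. St3gal4, which caps N-glycan antennae, was at 11.4, 9.55 and 10.2 FPKM in the control group and at 11.2, 10.4 and 12.2 FPKM in triple-deficient libraries. Triple-deficient 3 was the highest and control 2 the lowest, with the other 4 libraries interleaved. St3gal2 lies on chromosome 8 (110919743 to 110974058) and St3gal4 on chromosome 9 (35046576 to 35116864). GENCODE M21 places 412 exonic bases of St3gal4 opposite 4930581F22Rik, a noncoding gene at 1.74 ± 0.422 FPKM in the control group and 2 ± 0.213 FPKM in the triple-deficient group. The library kit marks strand, but whether the authors' counting used it is not given in the sources used here, so fragments in that stretch are of uncertain origin.

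St3gal1, the main sialyltransferase of O-glycans, was at 4.56, 4.42 and 4.66 FPKM in the control group and at 4.73, 4.46 and 4.52 FPKM in triple-deficient libraries. These 6 values differed little, with a coefficient of variation of 2.64% over all libraries, lower than in all but 4.40% of the genes tested. St3gal1 lies on chromosome 15 (67102875 to 67176946), which also carries both targeted genes, at 33.9 Mb from Ankrd33 and 35.7 Mb from Ankrd33b.

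St3gal6, an enzyme of N-acetyllactosamine ends and of selectin ligands, had the lowest level and the widest spread. It was at 1.23, 1.56 and 1.23 FPKM in the control group and at 1.31, 1.77 and 0.979 FPKM in triple-deficient libraries. Triple-deficient 2 and 3 were the highest and the lowest of all 6, so the controls lay within the range of the triple-deficient group. Its coefficient of variation was 20.8% over the 6 libraries, higher than in 92.1% of the genes tested. If all its fragments came from its longest annotated transcript (4123 bases), the libraries held about 73 to 160 fragments of it, and counting alone would give an error of at least 12% in the smallest. For St3gal3 the same estimate gave about 2200 to 3500 fragments and an error of 2.1%. St3gal6 (chromosome 16, 58469742 to 58524260) shares 1603 exonic bases with Dcbld2 on the opposite strand, which was at 5.69 ± 0.133 FPKM in the control group and 5.43 ± 0.257 FPKM in the triple-deficient group. The value of St3gal6 is therefore uncertain, as fragments of Dcbld2 could be counted in it if strand was not used.

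**Figure D1:**
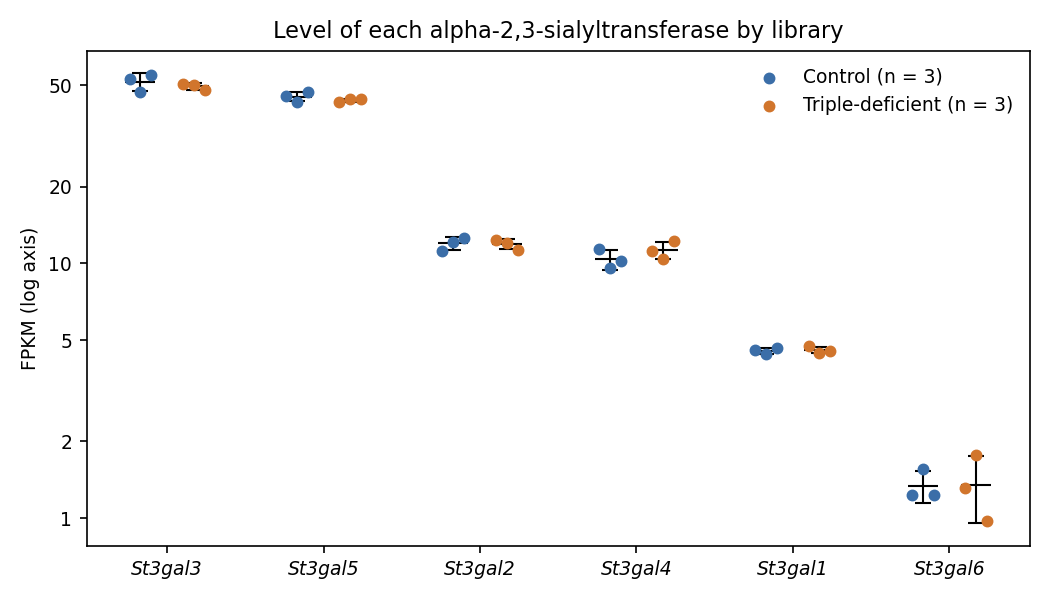
FPKM of each alpha-2,3-sialyltransferase on a log axis, 1 point per library, with control libraries in blue and triple-deficient libraries in orange; black marks are the mean and SD of each group (n = 3). St3gal3 and St3gal5 sit near 50.6 and 44.4 FPKM, St3gal6 near 1.35 FPKM, and the groups overlap for every gene.

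The order of levels was tested within libraries, where the scaling between libraries cancels. Each member was compared with its neighbour in the order of means by an exact two-sided sign-flip permutation test of the log2 ratio over the 6 libraries, which cannot give a p below 0.0312, with adjustment over 5 pairs. The order came from the same 6 libraries, so these p-values give no independent support for it. St3gal3 exceeded St3gal5 in 6 of 6 libraries, by 1.09 to 1.18 times (exact p = 0.0312, adjusted 0.0391). St3gal5 exceeded St3gal2 by ratios from 3.46 in triple-deficient 1 to 4.06 in control 1. St3gal4 exceeded St3gal1 by 2.16 to 2.70 times, and St3gal1 exceeded St3gal6 by 2.51 to 4.62 times. Each of these 3 pairs kept its order in 6 of 6 libraries (exact p = 0.0312, adjusted 0.0391). St3gal2 and St3gal4 were not separated: St3gal2 was higher in 4 of 6 libraries, with ratios from 0.922 in triple-deficient 3 to 1.27 in control 2 (exact p = 0.125, adjusted 0.125). These p-values measure only the spread of a ratio between libraries, so a bias of a gene that all libraries share is not in them. FPKM depends on the transcript model of each gene, which is not given, so all 5 steps rest on the authors' transcript lengths. This bears most on the small steps, St3gal3 to St3gal5 and St3gal2 to St3gal4.

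**Figure D2:**
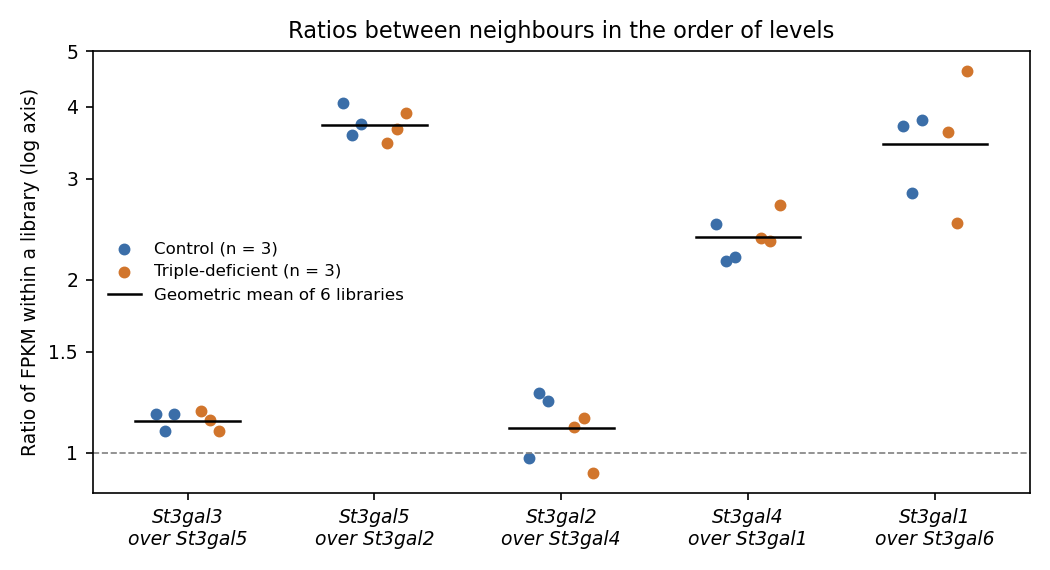
Ratio of FPKM between neighbours in the order of levels, on a log axis, with 1 point per library (blue, control; orange, triple-deficient; n = 3 each), the geometric mean of 6 libraries as a black bar and a ratio of 1 as a dashed line. Only the St3gal2 to St3gal4 ratios lie on both sides of 1, in 2 of 6 libraries below it.

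As a share of the summed FPKM of the 6 genes, St3gal3 made up 41.2 ± 1.21% in controls and 40.5 ± 0.815% in triple-deficient retinas (SD, n = 3). St3gal5 made up 36.1 ± 0.455% and 35.7 ± 0.794%. Together they held 76.0% to 78.0% of the family in each of the 6 libraries. St3gal2 and St3gal4 followed at 9.58 ± 0.735% and 8.32 ± 0.619% in controls and at 9.73 ± 0.380% and 9.22 ± 0.817% in triple-deficient retinas. St3gal1 held 3.57% to 3.84%, and St3gal6 0.811% to 1.44%. The summed level of the family was 126.6, 117.6 and 130.5 FPKM in the control group and 123.4, 122.9 and 120.8 FPKM in triple-deficient libraries. The triple-deficient sums fell within the range of the controls.

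**Figure D3:**
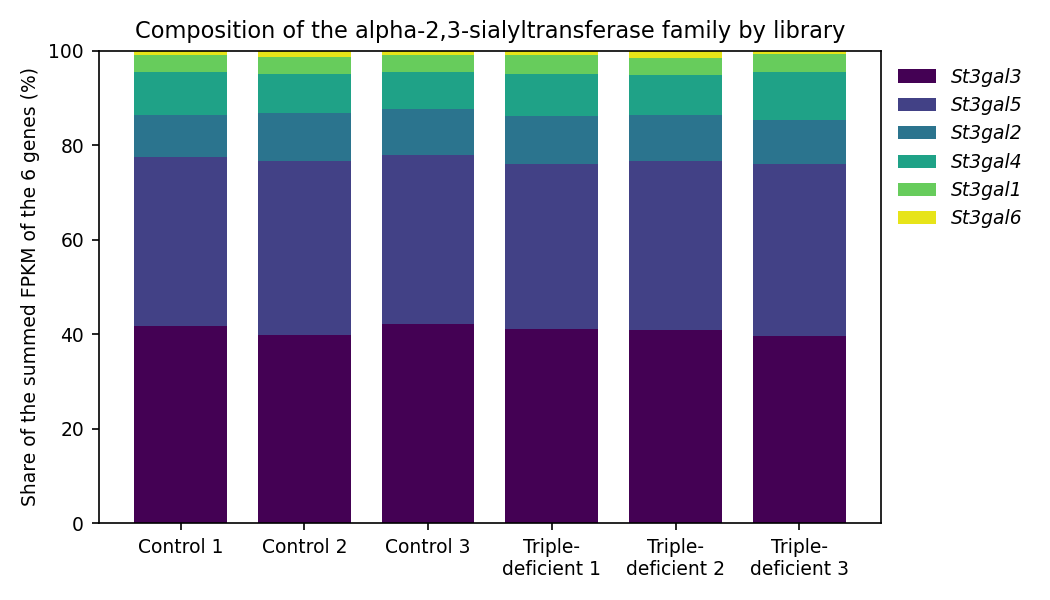
Stacked bars of the share of each gene in the summed FPKM of the 6 alpha-2,3-sialyltransferases, in percent, 1 bar per library. St3gal3 and St3gal5 fill 76.0% to 78.0% of every bar.

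No member passed the test between the genotypes. Genotype was tested with limma on log2(FPKM + 1), triple-deficient minus control, a scale on which changes of low genes appear smaller than they are. Of the 6 members, 0 passed the threshold, against 0.0279% of all genes tested, 0 had an unadjusted p below 0.05 (5.09% of all genes), and 0 had groups that did not overlap (10.5% of all genes). The largest value was that of St3gal4, at 10.4 ± 0.943 FPKM in the control group and 11.3 ± 0.886 FPKM in the triple-deficient group. The log2 change was 0.11, with an SE of 0.080 (limma adjusted p = 0.948). Its 95% interval ran from -0.07 to 0.29. Without triple-deficient 3, the library with the highest value, the log2 change was 0.06, and without control 1 it was 0.17. In retinas, fewer cells of a type and less RNA per cell cannot be told apart in such values.

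St3gal3 was at 51.6 ± 4.17 FPKM in the control group and 49.6 ± 1.55 FPKM in the triple-deficient group. The log2 change was -0.05, with an SE of 0.064 (limma adjusted p = 0.959), and its 95% interval ran from -0.20 to 0.09. St3gal5, the ganglioside enzyme, had the narrowest interval of the family. Its means of 45.1 ± 1.90 and 43.7 ± 0.580 FPKM gave a log2 change of -0.04 with an SE of 0.047 (limma adjusted p = 0.959) and an interval from -0.15 to 0.06, or 0.900 to 1.04 times FPKM + 1. St3gal1 and St3gal2 had log2 changes of 0.007 and -0.004, with intervals from -0.14 to 0.15 and from -0.15 to 0.14. St3gal6 had a log2 change of -0.001 with the widest interval, from -0.30 to 0.30, or 0.811 to 1.23 times FPKM + 1. The median log2 change of the 6 members was -0.0025, beside 0.0034 over all genes tested, with 4 members below 0 and 2 above.

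Triple-deficient 3 stood apart in base composition. Across genes, which are not independent, its deviations from the mean of the libraries had a Spearman correlation of -0.586 with transcript GC content. In the other libraries the correlation was 0.0653 to 0.297. The mean includes triple-deficient 3, so its negative trend by itself pushes the values of the other libraries up. The longest St3gal3 transcript has 58.5% G or C, the highest of the family, and the longest St3gal6 transcript 43.4%, the lowest. With trends on GC content and length removed from each library, the log2 change of St3gal3 was 0.01 and that of St3gal5 -0.03. St3gal4 was then at 0.12, and no member passed.

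**Figure D4:**
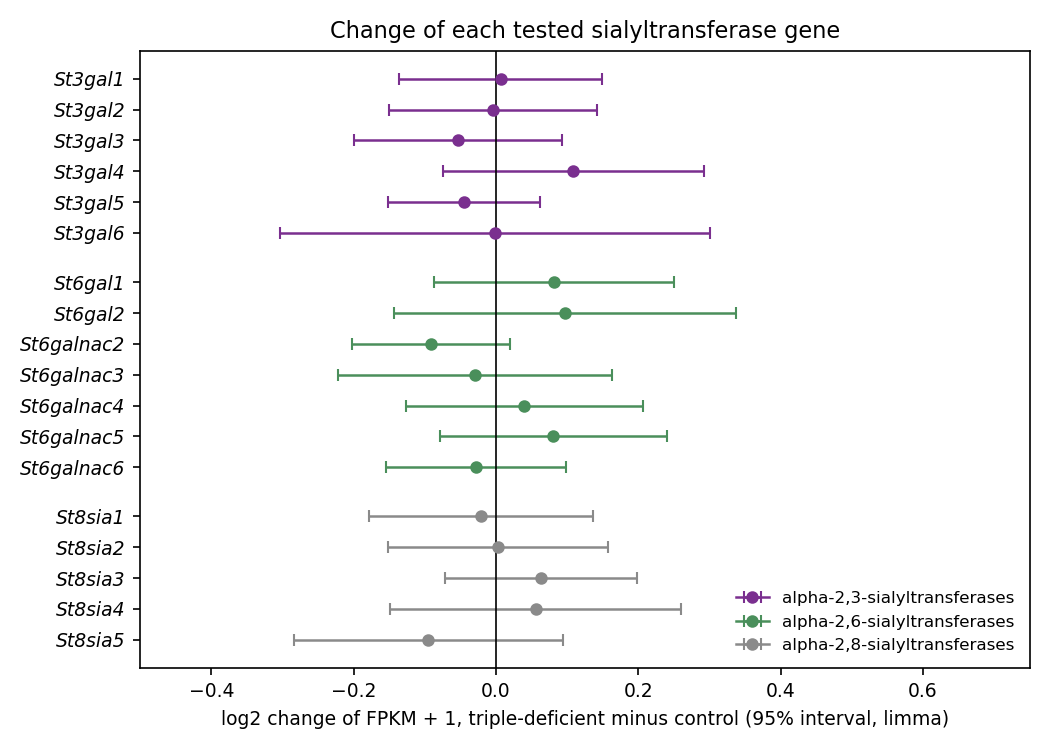
Log2 change of FPKM + 1, triple-deficient minus control, with 95% intervals from limma, for the 18 tested sialyltransferase genes, coloured by linkage. All intervals include 0; among the 6 alpha-2,3 genes they span -0.30 to 0.30, with St3gal5 narrowest and St3gal6 widest.

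Set among all 20 sialyltransferase genes of the tables, the alpha-2,3 group held 52.0% to 55.0% of the summed FPKM in each library. The 8 alpha-2,6 genes held 33.0% to 35.5% and the 6 alpha-2,8 genes 12.0% to 12.6%. St3gal3 and St3gal5 were thus each above the highest gene of the other groups, St6galnac6, an enzyme of gangliosides, at 27.5 ± 0.804 FPKM in the control group and 26.9 ± 1.56 FPKM in the triple-deficient group. Of the other linkages, 0 of 7 and 0 of 5 tested genes passed. St6galnac2, of O-glycans, was at 25.8 ± 0.995 and 24.1 ± 0.510 FPKM in groups that did not overlap (log2 change -0.09, limma adjusted p = 0.943). St8sia3 and St8sia5, which extend sialic acid chains on gangliosides and other glycans, were at 8.81 ± 0.403 and 6.96 ± 0.315 FPKM in the control group and at 9.25 ± 0.345 and 6.47 ± 0.737 FPKM in the triple-deficient group. St6galnac5, an enzyme of brain gangliosides, was at 4.45 ± 0.158 and 4.77 ± 0.335 FPKM.

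The genes that supply and use the reaction were described from 9 lists of 59 genes, of which 45 passed the filter and 0 passed the threshold in either direction. None had an unadjusted p below 0.05, and the groups did not overlap for 3 of the 45 (6.67%, beside 10.5% of all genes). On the donor side, Cmas, which activates sialic acid in the nucleus, was at 39.3 ± 0.420 FPKM in the control group and 38.6 ± 0.978 FPKM in the triple-deficient group. Cmah, which converts the activated donor to its glycolyl form, was at 0.563 ± 0.118 and 0.697 ± 0.097 FPKM. The median log2 change of the 6 supply genes was -0.008.

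None of the tested genes that build the acceptors passed the threshold. For lipid acceptors, Ugcg, which makes glucosylceramide, was at 21.7 ± 0.320 FPKM in the control group and 22.1 ± 0.325 FPKM in the triple-deficient group. B4galnt1 and B3galt4, which extend the product of St3gal5 to complex gangliosides, had log2 changes of -0.06 and 0.10 (limma adjusted p = 0.958 for each). For O-glycans, C1galt1, which makes the galactose end used by St3gal1, was at 2.90 ± 0.323 and 3.22 ± 0.186 FPKM, its chaperone C1galt1c1 at 17.6 ± 1.29 and 17.1 ± 0.425 FPKM, and the branching enzyme Gcnt4 at 5.27 ± 0.504 and 5.86 ± 0.361 FPKM. For N-glycans, Mgat1, which starts the antennae, was at 47.0 ± 3.20 and 45.7 ± 3.18 FPKM. B4galt1, a galactosyltransferase that makes ends for St3gal3 and St3gal4, had the smallest p of these lists (6.90 ± 0.281 and 7.85 ± 0.758 FPKM, log2 change 0.16, limma adjusted p = 0.943). B3galt1, of type-one chains, was at 6.19 ± 0.229 and 6.66 ± 0.291 FPKM.

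Tested genes that remove, modify or read sialic acid gave no call either. Neu1, the lysosomal sialidase, was at 11.7 ± 0.309 and 12.1 ± 1.18 FPKM in the control group and triple-deficient retinas, and Neu3, the plasma membrane sialidase that prefers gangliosides, at 5.03 ± 0.293 and 4.50 ± 0.324 FPKM in groups that did not overlap (log2 change -0.14, limma adjusted p = 0.946). Neu2 and Neu4 were below the filter. Fut9, a fucosyltransferase of Lewis structures, was at 2.68 ± 0.224 and 2.89 ± 0.157 FPKM, with Fut4 and Fut7 below the filter. Lectins that bind sialic acid were scarce: the 9 genes summed to 1.92 to 2.03 FPKM in the control group and 1.48 to 2.12 FPKM in triple-deficient libraries. Only Siglece and Siglech, lectins of myeloid cells and microglia, passed the filter, at 0.454 ± 0.112 and 0.539 ± 0.057 FPKM in the control group and 0.645 ± 0.196 and 0.525 ± 0.104 FPKM in the triple-deficient group.

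**Figure D5:**
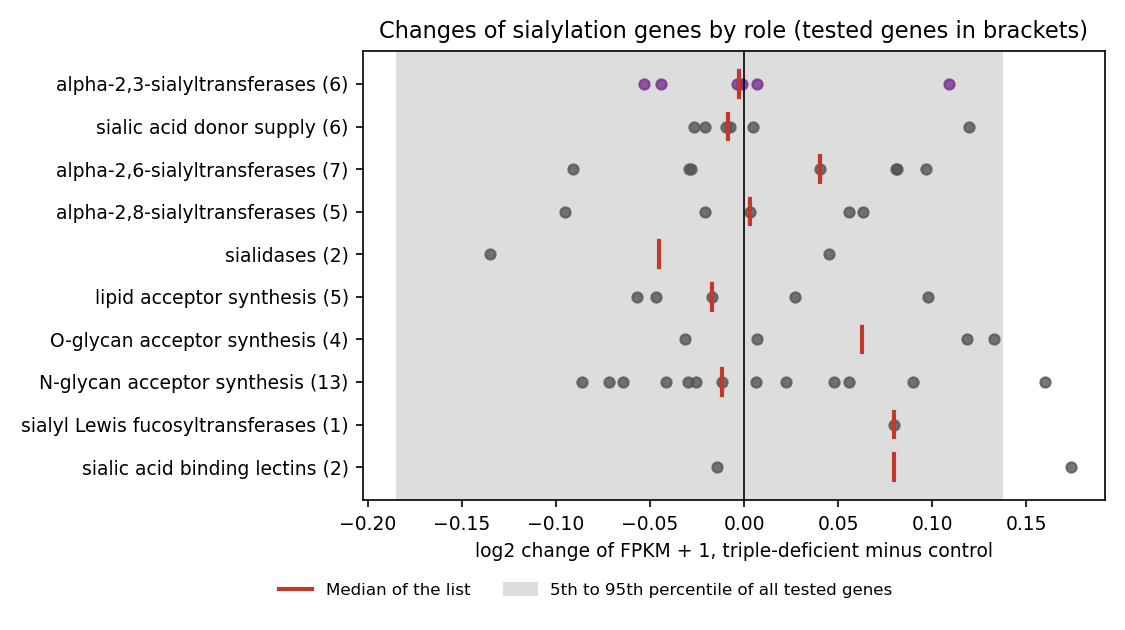
Log2 change of FPKM + 1 for the tested genes of each role in sialylation (1 point per gene, red bar for the median of the list), with the alpha-2,3-sialyltransferases in purple and the 5th to 95th percentile of all tested genes shaded (-0.18 to 0.14). The 6 alpha-2,3 genes lie inside the shaded range.

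Among 9469 other genes whose mean reached 5 FPKM, the gene whose centred log2 values over the 6 libraries lay closest to those of each member was found by the root mean square difference. It was Egln1 for St3gal1 (0.00812), Plekho2 for St3gal2 (0.00796), Enc1 for St3gal3 (0.0175), Cdc73 for St3gal4 (0.0228), Trub2 for St3gal5 (0.00949) and Lenep for St3gal6 (0.0396). The median difference over all candidates ran from 0.0749 for St3gal1 to 0.170 for St3gal6. With 6 libraries and this many candidates some gene will lie close to any pattern, so the values describe these libraries only.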

How the data were processed

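Libraries of retinal RNA were made with a stranded mRNA kit, per the labels' protocols. Each of the 6 deposited tables holds 1 FPKM value per gene symbol. The submitters' processing notes list Cufflinks 2.2.1, Cuffdiff, TopHat2 2.1.1 and Bowtie2 2.3.5.1, without roles, and the mm10 build. For annotation, strand use, multi-mapped reads and scaling, nothing is given in the sources used here. FPKM values were used as the authors deposited them.

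Genes whose mean reached 0.5 FPKM were tested with limma 3.58.1 (R 4.3.3, mean-variance trend) on log2(FPKM + 1), two-sided, with Benjamini-Hochberg adjustment over all 14325 genes. Levels were compared within libraries by exact sign-flip tests (SciPy 1.17.1). FPKM is not a count, so no count model was fitted. Depth was estimated from the steps of values below 0.3 FPKM and from 99 genes that have 1 annotated transcript, 2000 bases or longer. The test was also run on simulated data with known changes and independent normal noise. The outcome is not given here, so it says nothing about the size of change that could be missed. Alternatives were a pseudocount of 0.1, other filters, scalings and variance models, library weights, trend removal, a replicate block and leaving out each library.

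Members and lists were chosen with earlier results of these data known. Named genes are all members, the targeted genes, the 2 genes of smallest p and the highest gene of each list, and the closest gene in pattern to each member. Others (Opn1sw, Gnat1, Cnga1, Pde6b, Gngt1, Apoe, Ttr, Pmel, Tyrp1, Rpe65, Best1, Lrat, Cryaa, Bfsp1, Neu2, Neu4, Fut4, Fut7, Dcbld2 and 4930581F22Rik) were named after their values were seen.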

Additional observations from a re-analysis of the deposited data

How the results depend on the processing

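No member passed the threshold in any of the 17 alternatives run for each, with a smallest adjusted p of 0.825. Changes near 0 switched sign: St3gal2 was at 0.0275 with array quality weights and at 0.016 with GC and length trends removed, with or without the replicate block, St3gal3 was at 0.00589 with those trends removed, with or without the block, and St3gal6 was at 0.00324 with quantile normalization and 0.11 with array quality weights. Leaving out 1 library gave -0.0143 to 0.0215 for St3gal1, -0.0483 to 0.033 for St3gal2, -0.12 to -0.01 for St3gal3, 0.06 to 0.17 for St3gal4, -0.08 to -0.02 for St3gal5 and -0.13 to 0.12 for St3gal6; the cause was not tested. The count over all genes was 2 with no filter and 2 with robust shrinkage, and 3 to 11 with 1 library left out. With the replicate number as a block it was 4, as without it. Deviations of same-numbered libraries correlated at 0.0219, 0.114 and 0.0667, and those of differently numbered libraries at -0.195 to 0.12. Deviations from a mean of 3 libraries depend on each other, so these values cannot decide whether the numbers mark pairs. The numbers were not taken as pairs because nothing states that they mark littermates. With 1 library left out, and in either group alone, the mean log2 ratio of all 5 neighbour pairs kept its sign. For pairs with the same order in every library this could not come out otherwise. For St3gal2 over St3gal4 it ran from 0.102 to 0.194 with 1 library left out. It was 0.204 in controls and 0.0804 in triple-deficient libraries, where too few libraries remain for a test. The share of St3gal3 ran from 40.6% to 41.1% with 1 library left out, and that of St3gal5 from 35.8% to 36.1%. On the log2(FPKM + 1) scale each ratio kept its side of the threshold. Of the members, St3gal6 had the fewest estimated fragments (about 73 to 160), and the part of depth in its spread was not tested.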
